A study of Mus musculus with 8 samples.

Results

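The genes described here encode the machinery that turns cholesterol into steroid hormones, and 10 of the 22013 genes in the deposited table were taken by symbol. They were Star, Cyp11a1, Fdx1, Fdxr, Hsd3b1, Hsd3b6, Cyp17a1, Hsd17b1, Cyp19a1 and Mrap. Cyp11a1, Hsd3b1 and Mrap had been picked because their values were lower with the agomir, so their difference between the groups is described without a test. Poly(A) RNA had been sequenced from mouse blastocysts made by in vitro fertilisation, with gametes of wild-type ICR females aged 6 to 8 weeks and ICR males aged 8 to 10 weeks. All embryos grew in KSOM medium, and each of the 8 libraries held 5 pooled blastocysts, so a library is a mean over whole embryos of unrecorded sex and cell number. The agomir group of 4 libraries had received miR-21-5p agomir, a chemically stabilised double-stranded copy of a microRNA, at 50 nM for about 75 h. The blank control group of 4 libraries had received vehicle and no oligonucleotide, so an effect of the oligonucleotide as such and an effect of its sequence cannot be told apart. The labels give 1 batch and do not say whether pools came from separate fertilisations, so each p reflects the variation among these pools, which may be technical.

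Steroid synthesis starts in mitochondria. The StAR protein, product of Star, moves cholesterol to the inner mitochondrial membrane, where the cytochrome P450 encoded by Cyp11a1 cuts its side chain to give pregnenolone. The electrons for that step pass from NADPH through ferredoxin reductase (Fdxr) to ferredoxin (Fdx1). A 3-beta-hydroxysteroid dehydrogenase then makes progesterone, a step for which the mouse has several Hsd3b genes. Cyp17a1 leads on to androgens, Cyp19a1 is aromatase, which makes oestrogens, and Hsd17b1 reduces oestrone to oestradiol. Mrap encodes an accessory protein that brings the adrenocorticotropin receptor Mc2r to the cell surface. In mice progesterone is made by the ovary, including the granulosa and cumulus cells that surround the egg at ovulation, and after implantation by trophoblast giant cells.

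The mature microRNA that the agomir copies is shown first, with its seed, bases 2 to 8, in capitals, because the seed is what pairs with a target message. It lies on the minus strand of chr11:86584120-86584141 in GRCm38.p6, and the sequence is from RefSeq.
mmu-miR-21a-5p: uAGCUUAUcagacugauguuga
The complement of this seed, ATAAGCT, was searched in 3' untranslated regions, taking for each gene the longest in GENCODE release M21. It was present in 0 of the 10 genes, whose regions measured 171 bases in Cyp11a1, 358 in Hsd3b1, 377 in Mrap and 3096 in Star, the longest of them. Among 21007 genes with such a region, 7.18% held the match. The search covers 7 letters in annotated regions and says nothing of other forms of pairing.

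The upstream sequences of the 2 enzymes with the highest levels among the picked genes are given next, since their levels kept a steady ratio in the controls, though not with the agomir. The 250 bases before the RefSeq start of Hsd3b1, on the minus strand at chr3:98859795-98860044 in GRCm38.p6, held no match on either strand to AGGTCA, the core element of many nuclear receptors, to CAAGGNCA, the usual form bound by the Nr5a receptors, or to TATAAA. No letters are therefore in capitals.
Hsd3b1: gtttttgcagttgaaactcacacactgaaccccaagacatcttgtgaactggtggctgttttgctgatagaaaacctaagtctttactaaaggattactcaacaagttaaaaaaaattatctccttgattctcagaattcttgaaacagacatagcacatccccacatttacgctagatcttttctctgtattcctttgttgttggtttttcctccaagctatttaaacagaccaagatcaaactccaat
For Cyp11a1 the table holds a pair of starts. The window before the upstream one held no match to any of these elements. The window before the downstream one had a single AGGTCA match, in capitals below, that begins 28 bases before the start. The 26 bases printed span chr9:58014914-58014939 on the plus strand. GENCODE M21 lets a Cyp11a1 transcript begin upstream of it.
Cyp11a1: ggaaggggggAGGTCAccgctccatc
Among 32851 RefSeq windows of the same length, 14% held AGGTCA, 5.53% CAAGGNCA and 12.4% TATAAA, the 3 searches counted separately. A match of this kind is a string of letters and not a site shown to be bound.

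Total counts lay between 12246102 and 23147449 per library. In a principal component analysis of log2 expression, control 2 set itself apart on component 1 (27.5% of variance) and agomir 3 on component 2 (21.5%). Agomir 3 was also low on component 1, at -24.8 against -44.9 for control 2. Component 2 held the controls at 6.59 to 24.4 and the agomir libraries at -43.2 to -3.31, so the groups did not overlap on it. Several values below are also given without control 2 or agomir 3. Fold changes come from edgeR's quasi-likelihood fit to the counts of 12366 genes that passed a filter on low counts, 7 of the 10 among them, with p adjusted over all 12366 (Benjamini-Hochberg). Levels are in FPKM, fragment numbers scaled to gene length and to library size, which allows genes to be compared. In bulk pools, fewer cells that express a gene and less RNA in each cell cannot be told apart.

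Cholesterol entry was represented by Star, which was scarcely detected. Its level was 0.2, 0.73, 0.51 and 0.45 FPKM in controls 1 to 4 and 0.25, 0.53, 0.28 and 0.18 FPKM in agomir libraries 1 to 4, from 10 to 56 counts a library. The groups overlapped throughout, and the log2 fold change of agomir over control was -0.39 (SE 0.48, n = 4 per group, edgeR adjusted p = 0.909). It was -0.088 without control 2.

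Cyp11a1, which commits cholesterol to steroids, was well above Star in every library. Controls 1 to 4 had 14.93, 20.45, 28.45 and 9.33 FPKM, and agomir libraries 1 to 4 had 5.86, 8.16, 1.98 and 3.75 FPKM. All 4 agomir libraries lay below the lowest control, with only a narrow gap between control 4 and agomir 2. Cyp11a1 stood between ranks 2535 and 4551 of all genes by FPKM in controls and between ranks 5158 and 8005 in agomir libraries. Mean levels were 18.3 ± 8.15 FPKM in controls and 4.94 ± 2.67 FPKM with the agomir (SD, n = 4), and the log2 fold change of the counts was -1.81 (SE 0.38). The spread within the controls was wide too, and control 3 exceeded control 4 by more than the difference between the group means.

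The electron carriers of the side-chain cleavage step differed widely in level. Fdx1, the ferredoxin, was the most abundant of the 10 genes in every library, with 69.26, 68.44, 73.06 and 60.16 FPKM in controls 1 to 4 and 62.36, 66.82, 44.18 and 57.7 FPKM in agomir libraries 1 to 4. The groups overlapped, agomir 3 was the lowest of the 8, and the log2 fold change was -0.13 (SE 0.16, edgeR adjusted p = 0.901). Fdxr, its reductase, was far lower, with 1.84, 5.81, 2.12 and 1.13 FPKM in controls and 0.62, 1.04, 1.58 and 0.75 FPKM with the agomir. Control 2 stood above all others, and agomir 3 lay above control 4, so the groups overlapped. Fdxr had a log2 fold change of -1.27 (SE 0.49, unadjusted p = 0.0228, edgeR adjusted p = 0.704). Leaving out control 2 brought it to -0.66 (edgeR adjusted p = 0.828), and leaving out agomir 3 to -1.64 (edgeR adjusted p = 0.673).

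**Figure D1:**
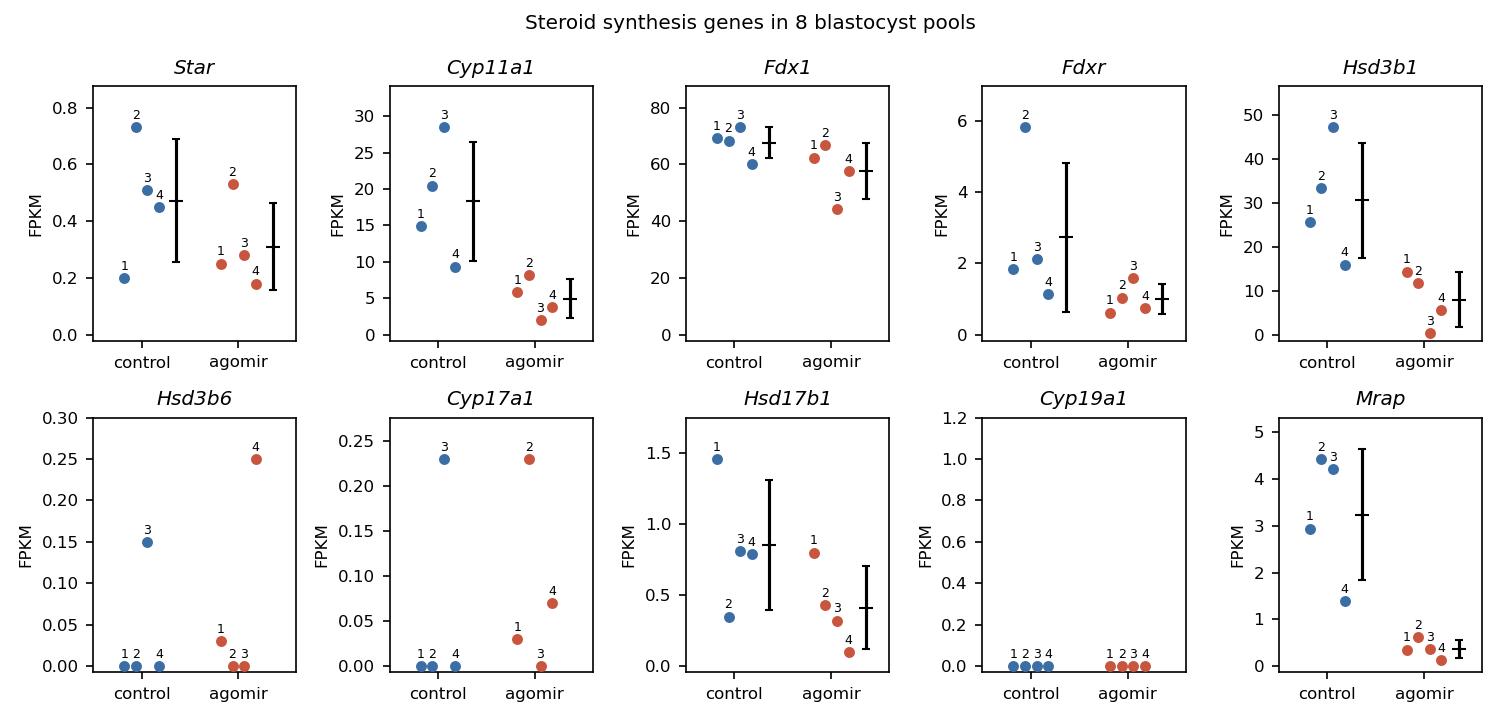
FPKM of each of the 10 genes (vertical axes, a separate linear scale per gene) in the 4 control libraries (blue) and the 4 agomir libraries (red), numbered by replicate, with the mean and SD of n = 4 in black for the 7 genes that passed the filter. Cyp11a1, Hsd3b1 and Mrap have all agomir points below all control points, Fdx1 lies between 44.18 and 73.06 FPKM throughout, and Cyp19a1 is at 0.

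Hsd3b1 was the most abundant of the Hsd3b genes in every control. It had 25.59, 33.35, 47.07 and 15.91 FPKM in controls 1 to 4, and 14.33, 11.68, 0.32 and 5.58 FPKM in agomir libraries 1 to 4. The order of the controls was that of Cyp11a1, agomir 1 came close to control 4, and agomir 3 was almost without the message, at 10 counts against 218 to 483 in the other agomir libraries. Means were 30.5 ± 13.2 and 7.98 ± 6.28 FPKM (SD, n = 4), and the log2 fold change was -1.88 (SE 0.73), or -1.48 without agomir 3. For Cyp11a1 the value without agomir 3 was -1.57.

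Hsd3b6, a form known from giant trophoblast, had 5.01 counts in control 3, 1 in agomir 1, 9 in agomir 4 and 0 in the other 5 libraries, and was not tested. Hsd3b1 shares exact stretches with its relatives, of up to 72 bases with Hsd3b6, and 2.16% of its 50-base windows recur in another annotated Hsd3b transcript. A few reads could therefore have been assigned to the wrong copy, which bears on the traces of Hsd3b6 more than on Hsd3b1. Of the other relatives, Hsd3b2 had 0.353 ± 0.110 FPKM in controls and 0.365 ± 0.176 FPKM with the agomir, Hsd3b7, which acts in bile acid synthesis, had 2.62 ± 0.849 and 2.93 ± 0.997 FPKM (SD, n = 4), and Hsd3b3, Hsd3b4, Hsd3b5, Hsd3b8 and Hsd3b9 had no count in any library.

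The sex steroid genes had few counts or none. Cyp17a1 had 9 counts in control 3 and 1, 8 and 3 counts in agomir libraries 1, 2 and 4, with 0 in the other 4 libraries. Cyp19a1 had 0 counts in all 8, which allows up to 0.130 to 0.245 CPM (counts scaled to library size) per library when 3 counts are taken as the limit. Hsd17b1 had 1.46, 0.35, 0.81 and 0.79 FPKM in controls and 0.8, 0.43, 0.32 and 0.1 FPKM with the agomir. These groups overlapped, agomir 4 was lowest and control 1 highest, and the log2 fold change was -0.98 (SE 0.64, edgeR adjusted p = 0.827). It rested on 3 to 24 counts per library.

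Mrap had 2.94, 4.43, 4.21 and 1.39 FPKM in controls 1 to 4 and 0.35, 0.62, 0.37 and 0.13 FPKM in agomir libraries 1 to 4. Every agomir value lay below every control value. The agomir libraries held 7, 12, 7 and 3 counts, and only 1 of them reached the filter's level against 4 controls, so Mrap entered the fit through the controls. Its log2 fold change was -3.02 (SE 0.52) and between -3.31 and -2.74 with any single library left out. The receptor it serves, Mc2r, had 0 counts in all libraries, and the related accessory gene Mrap2 had 12 counts in all.

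**Figure D2:**
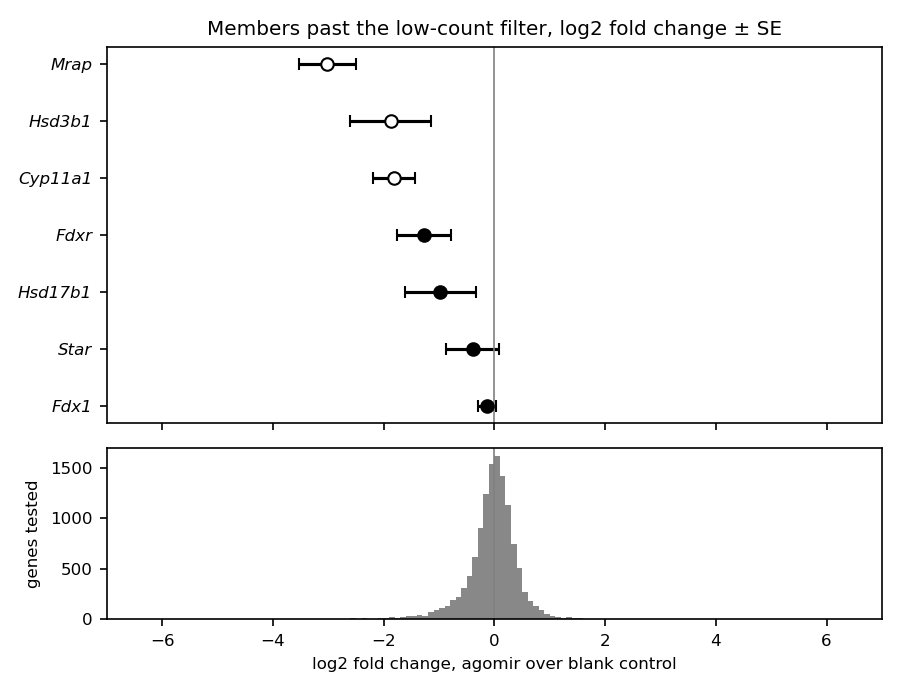
Log2 fold change of agomir over blank control (horizontal axis) with its SE for the 7 genes past the filter (top; open circles are the 3 genes picked for lower values), and the histogram of the same quantity over all 12366 genes tested (bottom). The 7 values run from -3.02 for Mrap to -0.13 for Fdx1, and the median of all genes is 0.0048.

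Against the whole table these values read as follows. No gene of the 12366 passed an adjusted p of 0.05 in edgeR (0% called, smallest adjusted p = 0.299), whereas DESeq2 called 34 of 14712 genes (0.231%), 3 higher and 31 lower. At an unadjusted p under 0.05, 3.74% of all genes were lower and 2.64% higher with the agomir. Of the 4 tested genes that were not picked, Star, Fdx1, Fdxr and Hsd17b1, 1 was lower at that level (Fdxr) and 0 passed the adjustment in edgeR or in DESeq2 (adjusted p for Fdxr = 0.445 in DESeq2). All 4 had a lower mean with the agomir, as had 49.4% of all genes. Groups did not overlap in CPM, lower with the agomir, for 2.47% of all genes, and higher for 1.42%. Cyp11a1, Hsd3b1 and Mrap were such genes, from which nothing is read since they had been picked for lower values, and none of the other 4 was.

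The balance between Cyp11a1 and Hsd3b1 is described here by library and with no test, since both genes had been picked on this contrast. The FPKM ratio of Hsd3b1 to Cyp11a1 was 1.71, 1.63, 1.65 and 1.71 in controls 1 to 4, although both genes were highest in control 3 and lowest in control 4. Counted as a share of the counts of both genes, Hsd3b1 made up 58.0% (95% exact interval 54.7% to 61.2%), 56.6% (54.4% to 58.9%), 57.0% (55.2% to 58.8%) and 57.7% (54.5% to 60.8%). These intervals cover counting error only, not the variation between pools, and reads amplified by PCR are not independent molecules.

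The ratio was 2.45, 1.43, 0.162 and 1.49 in agomir libraries 1 to 4, and the share of Hsd3b1 was 66.3% (62.8% to 69.8%), 53.4% (49.7% to 57.1%), 11.2% (5.52% to 19.7%) and 54.2% (49.2% to 59.2%). The highest share was in agomir 1 and the lowest in agomir 3, where it rests on 10 of 89 counts.

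The FPKM ratio of Mrap to Cyp11a1 was 0.197, 0.217, 0.148 and 0.149 in controls 1 to 4, and 0.0597, 0.0760, 0.187 and 0.0347 in agomir libraries 1 to 4. The agomir ratios rest on 3 to 12 Mrap counts a library. As a share of the counts of both genes, Mrap made up 6.496% to 9.26% in controls, with 95% exact intervals from 4.45% at the lowest to 11.6% at the highest. With the agomir the share was 2.78% (1.12% to 5.64%), 3.48% (1.81% to 6.00%), 8.14% (3.34% to 16.1%) and 1.604% (0.332% to 4.62%). Fdx1 exceeded Fdxr 37.6, 11.8, 34.5 and 53.2 times in controls and 101, 64.2, 28.0 and 76.9 times with the agomir.

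**Figure D3:**
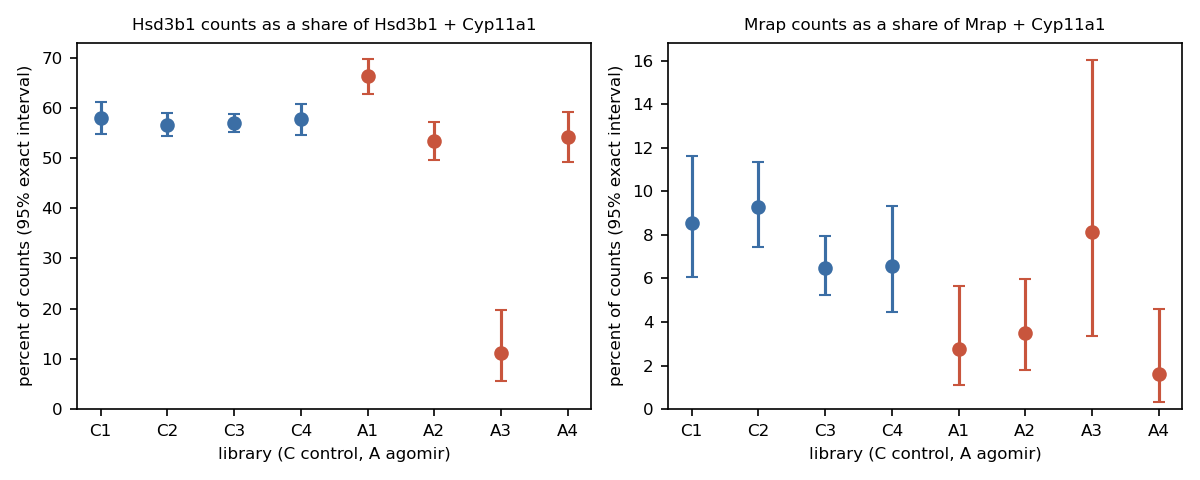
Counts of Hsd3b1 (left) and of Mrap (right) as a percentage of their sum with Cyp11a1 counts (vertical axes, from 0) in controls C1 to C4 (blue) and agomir libraries A1 to A4 (red), with 95% exact binomial intervals. The Hsd3b1 share lies between 56.6% and 58.0% in the controls and at 11.2% in agomir 3.

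The genes whose profile over the 8 libraries was most like that of each well expressed gene were then listed by Pearson's correlation of log2 CPM among 8696 other genes of at least 5 CPM. For Cyp11a1 they were Ifi27, an interferon-inducible gene (r = 0.99), Bst2, which encodes the antiviral protein tetherin (0.98), and Clu, which encodes the secreted chaperone clusterin (0.98). For Hsd3b1 they were Akr1cl, of the aldo-keto reductase family (0.99), Btg1, an antiproliferative gene (0.98), and Mgst1, a microsomal glutathione transferase (0.97). For Fdx1 they were the lysosomal protease gene Ctsb, the glycerolipid synthesis gene Gpam and Tmem19 (0.95, 0.95 and 0.94). All points share the 8 libraries and the group difference for which Cyp11a1 and Hsd3b1 were picked, so these are descriptions.

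Akr1cl was the most abundant of the Hsd3b1-like genes, with 28.86 to 86.74 FPKM in controls and 25.32, 23.92, 2.12 and 9.06 FPKM in agomir libraries 1 to 4. Its lowest value, like that of Hsd3b1, was in agomir 3. Clu had 8.65 to 37.91 FPKM in controls and 8.23, 6.85, 1.12 and 3.72 FPKM in agomir libraries 1 to 4. Ifi27 had 5.09 to 14.02 FPKM in controls and 1.59 to 4.13 FPKM with the agomir. For these genes and for Bst2 and Mgst1 the groups did not overlap, as for 2.47% of all genes tested in this direction, whereas for Btg1 they did.

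Further genes of steroid metabolism were grouped by role. Of 20 other synthesis enzymes and electron donors 10 were tested, of which 6 had higher and 4 had lower means (median log2 fold change 0.079), and none passed an unadjusted p of 0.05. The most abundant was Cyb5a, the cytochrome b5 that assists Cyp17a1, at 202 ± 65.1 FPKM in controls and 156 ± 27.2 FPKM with the agomir (SD, n = 4; log2 fold change -0.28, SE 0.24). Hsd17b12, which also elongates fatty acids, had 116 ± 16.9 and 110 ± 24.5 FPKM. Fdx2, the ferredoxin of iron-sulphur assembly, had 61.2 ± 15.9 and 69.8 ± 4.89 FPKM, so both ferredoxins were abundant. Por, which passes electrons to microsomal P450 enzymes, had 4.08 ± 1.42 and 2.61 ± 1.37 FPKM, and the 5-alpha-reductase gene Srd5a1 1.42 ± 0.241 and 0.830 ± 0.227 FPKM. Cyb5b, the mitochondrial outer membrane form, had 20.5 ± 3.90 and 24.0 ± 1.67 FPKM, Srd5a3 had 17.1 ± 2.77 and 17.5 ± 2.19 FPKM, and Hsd17b7, which also serves cholesterol synthesis, 5.62 ± 0.451 and 4.52 ± 0.589 FPKM. The adrenal enzymes Cyp11b2 and Cyp21a1 had no count.

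Of 23 genes for steroid inactivation and conjugation 13 were tested, 5 higher and 8 lower (median -0.043), and 2 were lower at an unadjusted p under 0.05. Over all genes tested, 3.74% were lower at that level, and 2.47% were lower with groups that did not overlap. Akr1c14, a 3-alpha-hydroxysteroid dehydrogenase, had 7.6, 4.46, 2.51 and 3.84 FPKM in controls and 1.88, 1.94, 1.05 and 1.28 FPKM with the agomir. The groups did not overlap, and the log2 fold change was -1.48 (SE 0.33, unadjusted p = 0.000775, edgeR adjusted p = 0.470). Cyp1b1, which hydroxylates oestradiol, had 2.34, 1.81, 5.77 and 1.01 FPKM in controls and 0.81, 0.73, 0.02 and 0.35 FPKM with the agomir. Control 3 was again highest and agomir 3 lowest, the groups did not overlap, and the log2 fold change was -2.54 (SE 0.74, edgeR adjusted p = 0.656), or -2.15 without agomir 3. Hsd17b10, a mitochondrial dehydrogenase, was the most abundant of the list at 135 ± 31.5 and 143 ± 5.93 FPKM. The dehydrogenases Akr1c13, Hsd17b4 and Hsd17b8 and the sulphotransferase Sult2b1 had log2 fold changes of -0.043, -0.032, 0.010 and -0.70, with edgeR adjusted p of 0.827 or above. The retinoic acid hydroxylase Cyp26a1 had 0.163 ± 0.293 FPKM in controls and 0.405 ± 0.202 FPKM with the agomir. Akr1c18, which inactivates progesterone, had 1.05 ± 0.468 FPKM in controls and 1.31, 1.04, 0 and 0.94 FPKM in agomir libraries 1 to 4.

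Of 20 genes for cholesterol delivery 18 were tested, 7 higher and 11 lower (median -0.035), and none passed an unadjusted p of 0.05. The lysosomal cholesterol carrier Npc2 had 118 ± 9.85 and 103 ± 3.89 FPKM, the esterifying enzyme Soat1 38.5 ± 21.4 and 41.3 ± 2.75 FPKM, and the mitochondrial protein Tspo 28.8 ± 6.00 and 26.1 ± 5.77 FPKM (SD, n = 4). Scarb1, the receptor for high-density lipoprotein, had a log2 fold change of -0.46 (SE 0.42). Vdac1, a channel of the outer mitochondrial membrane, had 97.5 ± 16.3 and 105 ± 14.3 FPKM, and Stard3nl, which tethers endosomes to the endoplasmic reticulum, 64.3 ± 15.02 and 63.2 ± 8.68 FPKM. The lysosomal lipase Lipa had 0.850 ± 0.449 and 0.485 ± 0.0998 FPKM.

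Of 23 control genes 17 were tested, 8 higher and 9 lower (median -0.0027), again with none at an unadjusted p under 0.05. Nr5a1, the master regulator of steroidogenic cells, had 3, 6, 17 and 4 counts in controls and 4, 5, 0 and 4 with the agomir, too few to test. Its relative Nr5a2, which the embryo uses in early development, had 8.66 ± 1.01 and 8.36 ± 1.62 FPKM (log2 fold change 0.055, SE 0.16). Gata4 and Gata6, which also act in gonads, had 11.5 ± 2.94 and 13.3 ± 4.08 FPKM, and 26.0 ± 6.05 and 23.9 ± 5.58 FPKM. Crem, Prkar1a and Akap1, of cyclic AMP signalling, were at -0.040, -0.15 and -0.10 on the log2 scale, and Prkar2b and Adcy9, of the same pathway, at -0.91 and -0.53, with edgeR adjusted p of 0.793 or above. Of 12 steroid receptor genes 5 were tested, 2 higher and 3 lower (median -0.084). Pgrmc1, a membrane-associated progesterone receptor component, had 87.5 ± 9.06 and 76.5 ± 6.64 FPKM, and the glucocorticoid receptor Nr3c1 0.555 ± 0.135 and 0.563 ± 0.216 FPKM. Pgrmc2 and the oestrogen-related receptors Esrra and Esrrb had log2 fold changes of -0.37, 0.30 and -0.10, with edgeR adjusted p of 0.819 or above. Iron-sulphur assembly genes with Fdx2 had 7 of 10 higher and 3 lower (median 0.12) and none at an unadjusted p under 0.05. The scaffold gene Iscu had 193 ± 35.3 and 216 ± 33.3 FPKM, Isca2 199 ± 19.4 and 198 ± 37.8 FPKM, and Isca1 146 ± 26.2 and 159 ± 22.9 FPKM. The sulphur donor enzyme Nfs1 had 51.9 ± 6.23 and 39.7 ± 5.02 FPKM. Lyrm4 and Hscb, further parts of this assembly route, had log2 fold changes of 0.27 and -0.12.

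**Figure D4:**
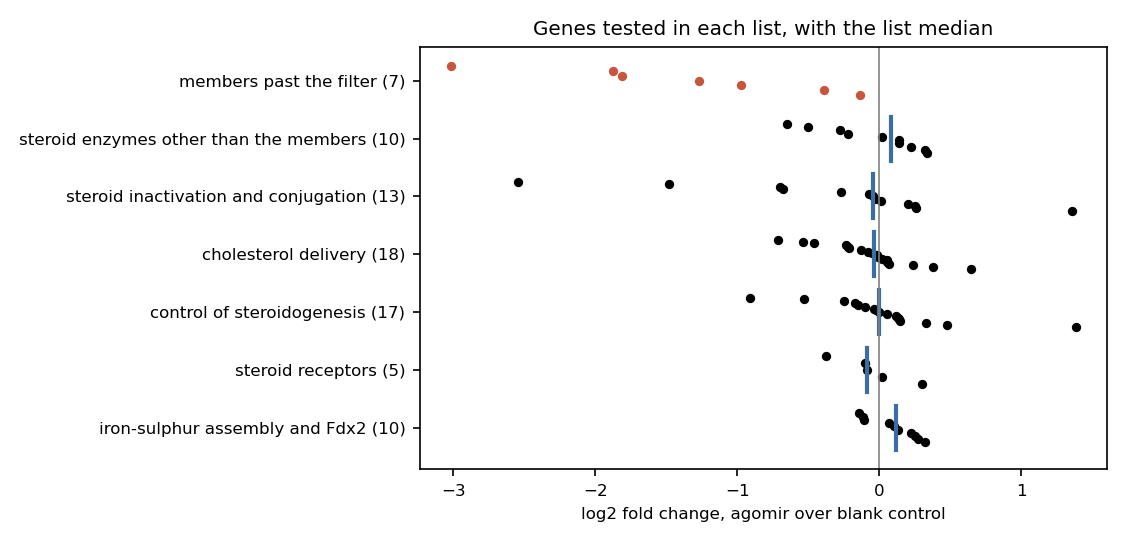
Log2 fold change of agomir over blank control (horizontal axis) for each gene tested, by list, with the number tested in brackets and the list median as a blue bar. No median is drawn for the 7 genes in red, of which 3 were picked for lower values. The 2 lowest points of the inactivation list are Cyp1b1 at -2.54 and Akr1c14 at -1.48.

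Markers of other cells that the pools could hold were read beside the steroid genes. Eggs had been collected with their cumulus cells, and 20 of 20 genes of the cumulus and granulosa list had a count in some library. A single count was enough for this, as for Ptx3 with 1 count in all. By the same measure 9 of 9 oocyte and 5 of 6 sperm markers had a count, so it does not tell cell types apart. Its summed level was 6.12 to 14.74 FPKM in controls and 1.77 to 9.91 FPKM with the agomir, lowest in agomir 3. Only 4 of these genes were tested. Over all genes tested, 3.74% were lower at an unadjusted p under 0.05, and 2.47% were lower with groups that did not overlap in CPM. Amhr2 was lower at an unadjusted p under 0.05 with groups that did not overlap in CPM (log2 fold change -0.74, edgeR adjusted p = 0.741). Fst had 18, 19, 44 and 17 counts in controls and 8, 16, 1 and 9 counts with the agomir. It therefore entered the fit through the controls, and its log2 fold change of -1.59 is only described. In FPKM the groups of Fst overlapped, with 0.37 in control 4 and 0.45 in agomir 2. Col1a1 had a log2 fold change of 0.025 and Inha of -1.31 (SE 1.23), or -0.90 without agomir 3. Inha had 3.32, 7.64, 8.32 and 1.82 FPKM in controls and 7.73, 0.35, 0 and 0.06 FPKM with the agomir. The cumulus expansion genes Has2, Ptx3 and Tnfaip6 had at most 18 counts in a library. The part of such cells in the levels of Cyp11a1 and Hsd3b1 was not tested. Among theca, Leydig and adrenal markers, 7 of 10 had a count, with Cyp11b2, Cyp21a1 and Mc2r at 0 and sums of 1.33 to 2.43 FPKM in controls and 0.72 to 1.93 FPKM with the agomir.

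Markers of the embryo's own lineages were read in the same way. All 12 trophectoderm markers were tested and had a higher mean with the agomir, 6 of them at an unadjusted p under 0.05 and 0 after adjustment in edgeR. Over all genes tested, 2.64% were higher and 3.74% lower at that unadjusted level. A lower mean was found for 49.4% of all genes, and 2.47% were lower with groups that did not overlap. Without agomir 3, 10 of the 12 trophectoderm markers were higher and 2 lower, with 3 at an unadjusted p under 0.05. Without control 2 all 12 were higher, with 6 at that level. The summed level of the 12 markers was 3529 to 4942 FPKM in controls and 4302 to 7243 FPKM with the agomir. The highest sum, in agomir 3, was carried by the keratin genes Krt8 and Krt18, and without these genes agomir 3 stood at 3776 FPKM, below agomir 1 (4341 FPKM) and control 3 (3941 FPKM). Most of what remained was Dppa1 alone, at 3453 FPKM in agomir 3, 4087 FPKM in agomir 1 and 3698 FPKM in control 3. Among agomir 1, control 3 and agomir 3 the order of the sums is therefore that of Dppa1 and does not describe the other markers. Of 7 inner cell mass and epiblast markers tested, 2 were higher and 5 lower (median log2 fold change -0.33), with 1 lower at an unadjusted p under 0.05, Klf4 (-0.77, edgeR adjusted p = 0.656). Of 8 primitive endoderm markers 4 were higher and 4 lower (median 0.041), with 1 lower at that level, Hnf4a (-1.12, edgeR adjusted p = 0.678), whose groups did not overlap. Without agomir 3 the primitive endoderm list had 6 higher and 2 lower, with 1 higher and 1 lower at an unadjusted p under 0.05. Without control 2 this list had 4 higher and 4 lower. Giant cell and later placental markers had counts for 8 of 13 genes, with Prl3d1, Prl3d2, Prl4a1, Prl7a1 and Gcm1 at 0 and sums of 2.85 to 7.95 FPKM in controls and 1.5 to 3 FPKM with the agomir. The part of lineage make-up in the steroid genes was not tested.

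**Figure D5:**
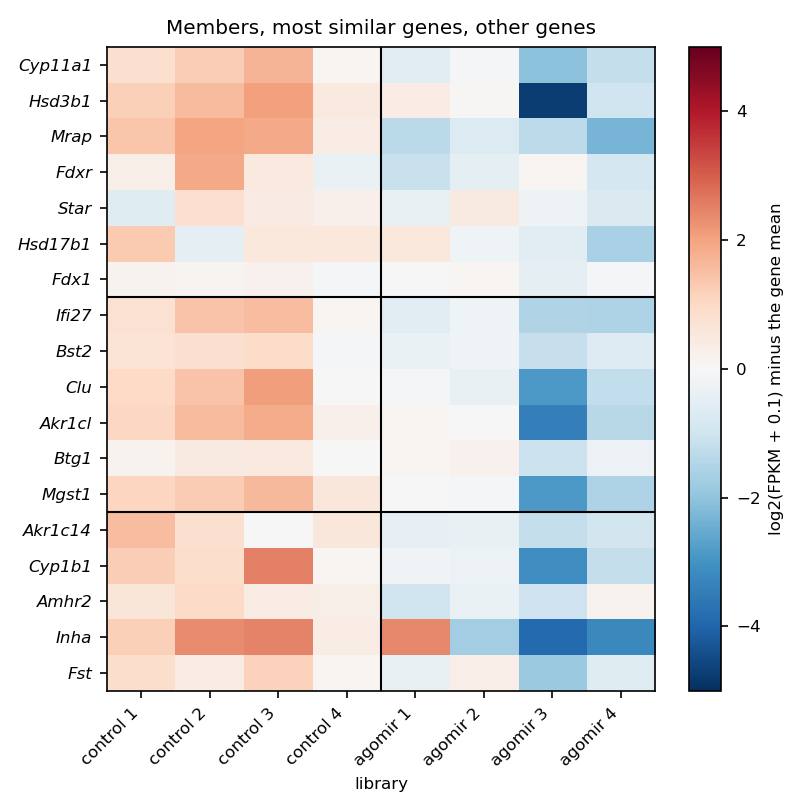
Log2(FPKM + 0.1) minus the gene's mean over the 8 libraries (colour) for the 7 genes past the filter (top block), the genes most like Cyp11a1 and Hsd3b1 (middle block) and 2 inactivation and 3 granulosa genes (bottom block), by library (columns). The bottom block holds only genes with a lower mean with the agomir and does not stand for their lists. The tested granulosa gene Col1a1 (log2 fold change 0.025) is not drawn. Agomir 3 is the lowest column for Hsd3b1, Akr1cl, Cyp1b1 and Inha, while Inha is as high in agomir 1 as in controls 2 and 3.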

How the data were processed

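The authors deposited 1 table of counts and FPKM values, with a column of each per library. The submitters' processing notes name the build GRCm39 and, without roles, DESeq2 1.36.0, HISAT2 2.1.0, RSEM, StringTie 1.3.1, fastp 0.18.0, MultiQC and FastQC. The annotation and the setting for strand are not given in the sources here, so reads of overlapping antisense genes cannot be told apart. The deposited counts were handled as estimated counts, since 1212 of 176104 values were not whole, and were rounded. The deposited FPKM values were used for levels and in 2 alternatives. There were 0 columns of other samples.

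Genes were filtered with filterByExpr (minimum count 10, minimum total 15), scaled by TMM and compared with edgeR 4.0.16 in R 4.3.3 (robust quasi-likelihood F test, 2-sided, threshold 0.05 after adjustment), with limma 3.58.1 and DESeq2 1.42.0 as alternatives. The SE of a fold change is the log2 fold change over the root of F. The procedure was tested on simulated data. CPM and FPKM means carry the SD of n = 4. Sequences are on GRCm38, another build than the table's, so no coordinates were combined. Promoters of 6 of the 10 genes and the microRNA were in the RefSeq tables used.

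The genes and lists were chosen with earlier results of these data known. Named genes were the 10 members, up to 5 genes of highest FPKM and 3 further ones of smallest p from each list, and the 3 genes most correlated with a member (log2 of CPM + 0.5). Genes beyond that rule (Hsd3b2, Hsd3b7, Akr1c18, Nr5a1, Nr5a2, Mrap2, genes listed at 0 and the cell type markers) were named after their values were seen. Some genes that the rule names are not reported here.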

Additional observations from a re-analysis of the deposited data

Results flagged for a closer look

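In 3 of 18 groups of 4 libraries, 1 value stood apart from the other 3 by Dixon's criterion at the 95% level. The usual rate of about 1 in 20 does not apply here, since in the control groups of Hsd3b6 and Cyp17a1 the other 3 values were 0 and any single count would stand apart. They all belong to genes near the limit of detection. Hsd3b6 stood at 0.233 CPM in control 3, the only control with any count, and at 0.436 CPM in agomir 4. Cyp17a1 stood at 0.419 CPM in control 3 and at 0 in the other controls.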

How the results depend on the processing

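Each of the 7 tested genes kept a lower mean with the agomir in every alternative that could be fitted (129 values). For Cyp11a1, Hsd3b1 and Mrap nothing is read from this, since they had been picked for lower values. None of the 4 genes not picked passed the threshold in any alternative. Mrap moved from -3.02 to -1.57 on log2(FPKM + 1), where the pseudocount of 1 exceeds its level in each agomir library. Hsd3b1 was at -2.66 on log2(FPKM + 0.1), and Hsd17b1 at -0.38 on log2(FPKM + 1) and -1.43 with limma-voom. With single libraries left out, Cyp11a1 ranged from -2.09 to -1.48, Hsd3b1 from -2.32 to -1.48, Fdxr from -1.64 to -0.66, Hsd17b1 from -1.49 to -0.63, Star from -0.69 to -0.088 and Fdx1 from -0.16 to -0.059. Without control 3, which had the most of both, Cyp11a1 was at -1.48 and Hsd3b1 at -1.54. The count of genes past the threshold ran from 0 to 1 with a library left out (Il10rb without control 4, named after its value was seen) and was 34 with DESeq2. The median of other synthesis enzymes was -0.041 and -0.047 on log2(FPKM + 1) and log2(FPKM + 0.1), and -0.075 to 0.14 with single libraries left out. That of iron-sulphur genes was 0.0091 with library totals alone, which moved the median of all genes to -0.11, and -0.00071 and -0.00017 on the FPKM scales. The cause was not tested. The deviations of same-numbered libraries from their group means had correlations of -0.11, -0.036, -0.16 and 0.19. Those of differently numbered libraries ran from -0.25 to 0.30. The labels give no pairing, and so few weak correlations cannot settle whether the numbers pair the libraries. With the replicate block 0 genes passed, and Cyp11a1 was at -1.78, Hsd3b1 at -2.09 and Fdxr at -1.14. A filter at 5 CPM left out Star, Hsd17b1, Fdxr and Mrap. Depth limits Star, Hsd17b1, Hsd3b6, Cyp17a1 and Mrap, which had under 100 counts in each library. It also limits Fdxr, which had 24 to 88 counts in every library but control 2, where it had 215. The values without agomir 3 and control 2 for Akr1c14, Cyp1b1, Amhr2, Fst, Inha and the lineage markers were added after seeing the data, and these 5 genes kept their direction and stayed short of the adjusted threshold in both.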

Other observations

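Control 3, which had the highest Cyp11a1, Hsd3b1 and Cyp1b1 of all libraries, differed in traces of other genes. Lyz2, the lysozyme gene of macrophages, had 467 counts there, 0 in the other controls and at most 1 in an agomir library. The other blood markers read were mixed. Ptprc had 6 counts in control 3 and 0 elsewhere. Cd68 was not raised there, at 24.63, 19.17, 19.68 and 14.32 FPKM in controls 1 to 4. Of the globin genes, Hbb-bt and Hbb-bs had 0 counts throughout. Hba-a1 had 9, 26, 17 and 21 counts in controls and 9, 11, 10 and 15 with the agomir. Hba-a2 had 6, 5, 13 and 0 counts in controls and 2, 0, 0 and 16 with the agomir. Whether control 3 held blood cells was not tested. Nr5a1 had 17 counts in control 3 and 0 to 6 elsewhere.

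Prl3b1, which encodes placental lactogen II of later giant cells, had 23, 113, 1 and 57 counts in controls 1 to 4 and 6, 3, 1 and 1 counts in agomir libraries 1 to 4. It was lowest among controls in control 3, where Cyp11a1 and Hsd3b1 were highest. Nr0b1, an inhibitor of Nr5a receptors, had 0.41, 0.17, 1.4 and 0.03 FPKM in controls and 0.79, 2.18, 0.18 and 1.91 FPKM with the agomir, where the groups overlapped (log2 fold change 1.38, SE 0.90, edgeR adjusted p = 0.827).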
